A study of Mus musculus with 6 samples.

Results

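Potassium channel genes other than those of the BK and ATP-sensitive channels were followed in pancreatic islets of mice given bisphenol A (BPA) or vehicle. The group was a list of 28 gene symbols, and its members were all probe sets on the array that the platform annotation assigns to 1 of these symbols, dim ones included. Of the 28 genes, 25 were named on the array, by 59 of the 45037 probe sets that are not array controls. Kcnb2, Kcnh6 and Kcng3 were not analysed here, because no probe set carries their symbol in the annotation used here. Each gene is described by its brightest probe set, the one with the highest mean over the 6 arrays. Other probe sets that differ from it are given for some of the genes.

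All islets came from OF1 male mice aged 10 weeks, with 3 control and 3 BPA samples on 1 Affymetrix array each. BPA is used to make plastics and binds oestrogen receptors. The series' design gives BPA under the skin in corn oil at 100 µg/kg/day, as 2 injections of 50 µg/kg, over 4 days, with 100 µL of corn oil for the controls and isolation of islets 16 hours after the last injection. The treatment protocol instead has 2 days of treatment at 100 µg/kg/day, and the source label of each BPA sample has 1 nM for 48 hours. The sources disagree, and the values below hold for whichever was applied. Each replicate is described as made of 3 experiments, and the animals behind a sample are not counted in these sources. P-values therefore measure only the spread between these samples, which may in part be technical.

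Potassium channels let potassium leave the cell and so pull the membrane potential down. In beta cells, closure of the ATP-sensitive channel by glucose metabolism starts electrical activity. The other potassium channels shape what follows: voltage-gated channels end each action potential, calcium-activated channels respond to the calcium that entered, and two-pore-domain channels carry a background current. G protein-gated inward rectifiers open when inhibitory receptors, such as those for adrenaline, galanin or somatostatin, are engaged.

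The arrays were of like scale, with median log2 signals of 6.55 to 6.65, and precision is limited by having 3 of them in each group. The endocrine marker list, with all 7 genes named, averaged 14.12 to 14.19 in controls and 14.10 to 14.27 after BPA, so the labelled tissue showed high signal of its defining genes. Both arrays with replicate number 3 stood apart: they scored 57.76 and 40.98 on the first principal component (52.6% of the variance) and the other 4 scored -44.25 to -2.63. They also had the lowest signals of exocrine (acinar) markers, at a list mean of 11.58 in control replicate 3 and 12.59 in BPA replicate 3 against 13.11 to 14.05 in the others (7 of 9 markers named, the dimmest being Ptf1a at 6.33 and 6.49 in those arrays). In bulk islets, fewer cells of a type and less RNA per cell cannot be told apart. For members in which both arrays lay apart from the others, the difference is also given without them.

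The signal order of the channels in control islets is shown first. Probes bind with different strength and array signals are not per transcript length, so it is an order of signals and not of transcript numbers. As a yardstick, the 44 probe sets of olfactory receptors, genes not expected in islets, had a median control signal of 4.70 and a 95th percentile of 6.68. Of the 25 channel genes, 11 lay above that percentile in the control mean and also in the BPA mean, and the other 14 lay below it. A signal under this mark does not show that the gene is absent.

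**Figure D1:**
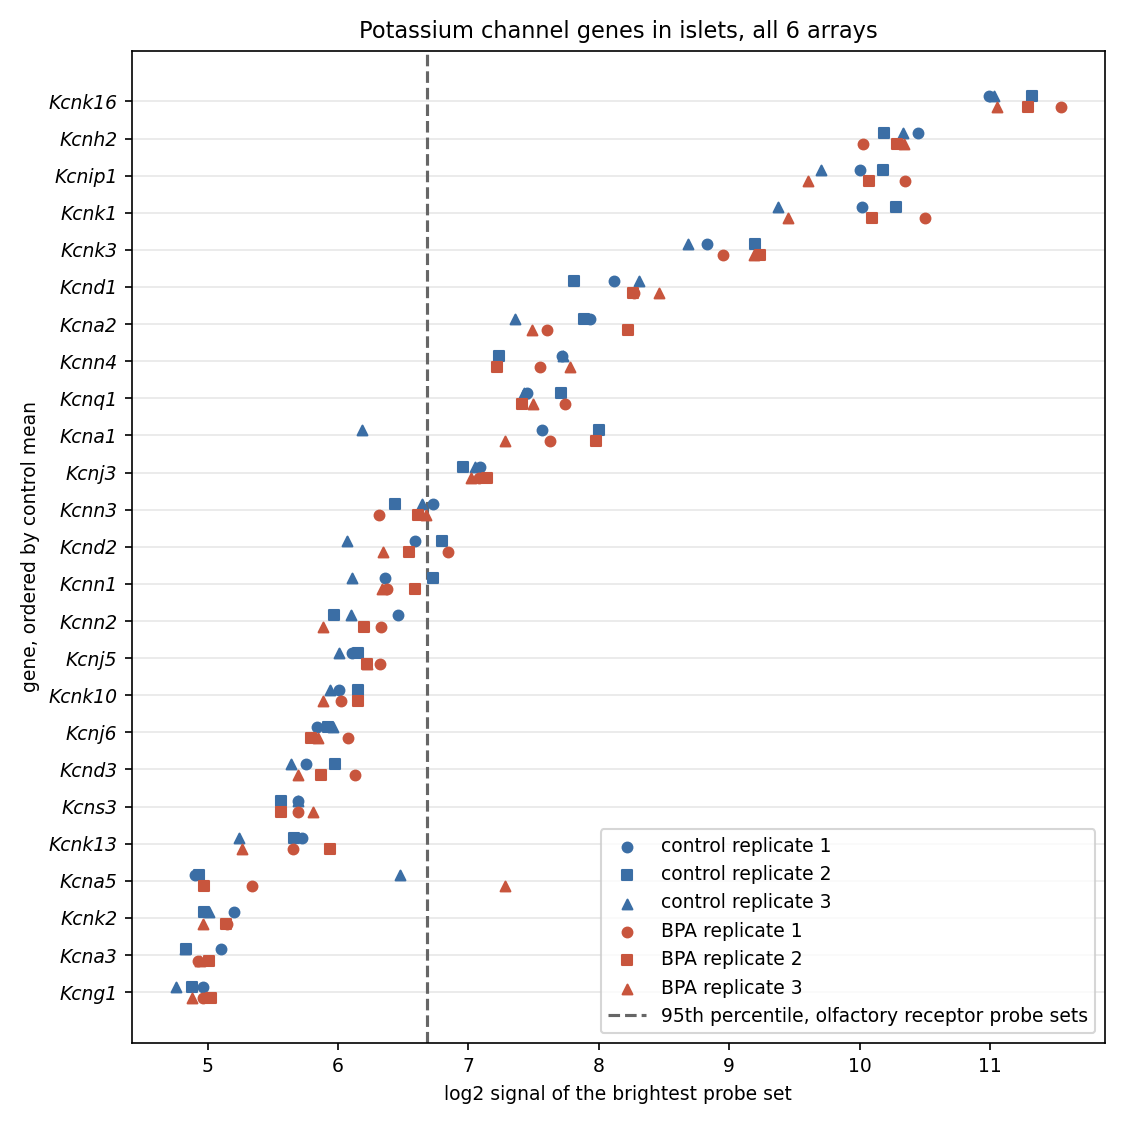
Log2 signal (x axis) of the brightest probe set of 25 potassium channel genes (y axis, ordered by control mean), with 1 point per array, coloured by group and shaped by replicate number. Kcnk16 is at the top with a control mean of 11.12, the control means of 11 genes lie right of the dashed line at 6.68, and the 2 replicate 3 arrays of Kcna5 lie far from its other 4 points.

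The brightest of the group was Kcnk16, which encodes the two-pore-domain channel TALK-1, a background channel known for its restriction to the pancreas. It read 10.99, 11.32 and 11.03 in controls (mean 11.12 ± 0.18, SD, n = 3), at the 94.2nd percentile of all probe sets. Kcnh2, the ERG channel gene, followed with 10.45, 10.19 and 10.33 (10.32 ± 0.13, SD, n = 3). Controls of these genes did not overlap, nor did those of Kcnh2 and the next in order, Kcnip1.

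Kcnip1, a calcium-binding subunit that joins fast-inactivating voltage-gated channels, had a control mean of 9.96 ± 0.24, and Kcnk1, the TWIK-1 gene, had 9.89 ± 0.47 (SD, n = 3). These 2 neighbours in the order overlapped. Kcnk3, the acid-sensitive TASK-1 gene, stood alone at 8.90 ± 0.26 (SD, n = 3), between Kcnk1 above and Kcnd1 below without overlap. From Kcnd1 (8.08 ± 0.25) through Kcna2 (7.73), Kcnn4 (7.56), Kcnq1 (7.53) and Kcna1 (7.25) to Kcnj3 (7.03), each gene overlapped the next. The order of neighbours is thus not resolved beyond the spread of the arrays, though all controls of Kcnd1 lay above those of Kcnn4, Kcnq1 and Kcnj3.

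The 14 dimmer genes had control means of 4.87 to 6.60. From the top they were Kcnn3, Kcnd2, Kcnn1, Kcnn2, Kcnj5, Kcnk10, Kcnj6, Kcnd3, Kcns3, Kcnk13, Kcna5, Kcnk2, Kcna3 and Kcng1. Each of them overlapped the next in order in the control arrays. Kcnj3 did not overlap Kcnn3, the next in order. Control replicate 3 of Kcna1, at 6.19, still lay below every control of Kcnn3, so the brighter and dimmer genes were not separated on all arrays. The order after BPA kept Kcnk16 first and Kcnh2 second, exchanged Kcnip1 with Kcnk1 and moved no gene by more than 2 places.

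The comparison of BPA with vehicle asks which channel transcripts differ after treatment. In limma's moderated test over all 45037 probe sets, 0 passed an adjusted p under 0.05 in either direction (0% of all probe sets), and so did 0 of the 59 channel probe sets, whose smallest adjusted p was 0.837. Without adjustment, 2643 probe sets (5.87%) had p under 0.05, with 1545 higher (3.43%) and 1098 lower (2.44%). Of these 1 was a channel probe set, on the higher side. Limma without a trend in the variance also called 0. Over the 25 genes the differences ran from -0.11 to 0.43 (log2), with a median of 0.047, beside 0.036 over all 18193 named genes.

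Of the 25 genes 19 had a higher mean after BPA (76%) and 6 a lower one, where 60.3% of all genes were higher and 39.7% lower. That count depended on single arrays: without control replicate 3 it was 11 (44%, beside 55.7% of all genes), with a median of -0.0039. Without BPA replicate 1 it was 14 (56%, beside 57.7% of all genes). Without both replicate 3 arrays it was 20 (80%, beside 60.2%). Groups did not overlap for 1 of the 25 genes (4%), on the higher side, where the share over all genes was 11.7% (8.64% higher, 3.09% lower). A difference over 0.25 in size was seen for 3 of the 25, namely Kcna5, Kcna1 and Kcnd1, where the share over all genes was 13.5%. That number was 2 to 6 with each array left out in turn, the highest of them without BPA replicate 3. The count without overlap lies below the share of all genes. The 3′ minus 5′ balance of the Gapdh and Actb control transcripts, a measure tied to RNA quality, did separate the groups. For Gapdh it was 3.40 to 3.79 in controls and 2.58 to 2.99 after BPA, and for Actb 3.35 to 3.80 against 2.61 to 2.98 (exact permutation p = 0.1 each, the smallest possible with these arrays, two-sided). Its part in the differences below was not tested.

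**Figure D2:**
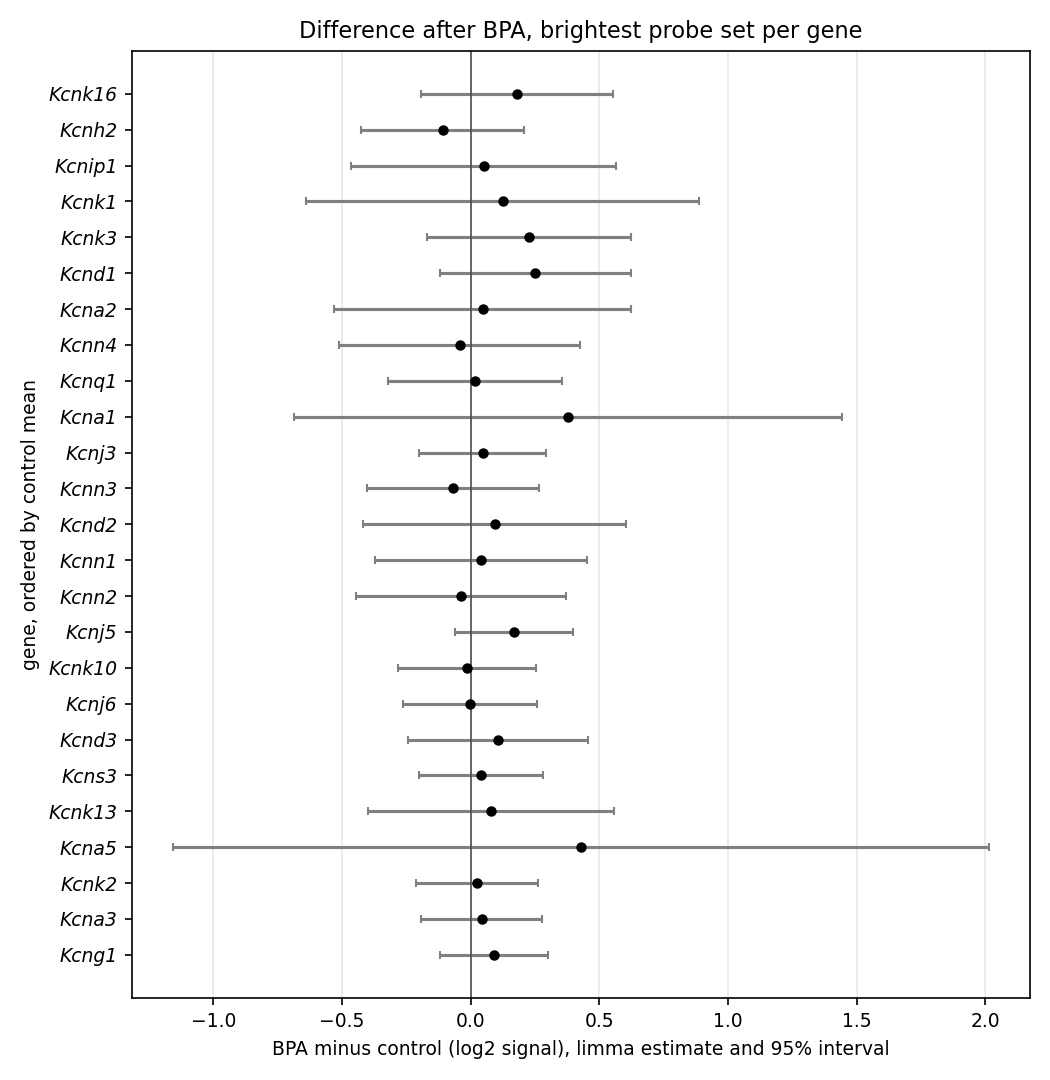
BPA minus control on the log2 scale (x axis) for the brightest probe set of each gene (y axis, ordered by control mean), as limma's estimate with its 95% interval from 3 arrays per group. Every interval includes 0; the widest are those of Kcna5 (-1.16 to 2.01) and Kcna1 (-0.69 to 1.44).

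The two-pore-domain genes, whose channels set the resting potassium leak, included 3 of the 5 brightest members. Kcnk16 read 11.54, 11.29 and 11.06 after BPA (11.30 ± 0.24, SD, n = 3), which overlapped the controls. Its difference was 0.18 ± 0.16 (SE, adjusted p = 0.889), or 1.13 times the control signal with a 95% interval of 0.875 to 1.47 times. BPA replicate 1 held the highest value of the gene, and leaving out each array in turn gave 0.057 to 0.30.

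Kcnk1 encodes TWIK-1, a weakly conducting channel found in many tissues. It read 10.02, 10.28 and 9.37 in controls and 10.50, 10.10 and 9.45 after BPA. Its low values were the 2 replicate 3 arrays, 1 in each group, and the groups overlapped. The difference was 0.12 ± 0.32 (SE, adjusted p = 0.960), and 0.15 without both replicate 3 arrays (adjusted p = 0.835). A dimmer probe set of Kcnk1 showed the same low arrays, with 7.11, 7.26 and 6.56 in controls and 7.72, 7.27 and 6.75 after BPA. Acinar markers were lowest in the same 2 arrays, and their part in the Kcnk1 signal was not tested.

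Kcnk3, the TASK-1 gene, read 8.83, 9.20 and 8.68 in controls and 8.96, 9.24 and 9.19 after BPA, with overlapping groups. It differed by 0.23 ± 0.17 (SE, adjusted p = 0.877), and by 0.083 without both replicate 3 arrays, a smaller value than with them. Dimmer probe sets of Kcnk3, 1426058_a_at and 1425342_a_at, had the opposite sign, at -0.0064 ± 0.13 and -0.097 ± 0.089 (SE). The remaining genes of the class were dim. Kcnk2 and Kcnk10, the mechanically gated TREK channels, differed by 0.024 ± 0.10 and -0.013 ± 0.11, and Kcnk13, the THIK-1 gene, by 0.078 ± 0.20 (SE). Of the 6 genes of the class 5 had a higher mean after BPA, beside 60.3% of all genes. The median of the class was 0.10, and none of the 6 passed the test.

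Among the voltage-gated subunits, Kcnh2 was the brightest and was the only 1 of 9 with a lower mean after BPA, beside 39.7% lower of all genes. That count depended on single arrays: without control replicate 3, Kcna1, Kcna2, Kcna3, Kcnd2 and Kcnq1 were lower too. ERG channels, for which Kcnh2 codes, close slowly and repolarise heart and endocrine cells. It read 10.02, 10.29 and 10.34 after BPA against 10.45, 10.19 and 10.33 in controls, which overlap. Its difference was -0.11 ± 0.13 (SE, adjusted p = 0.916; 95% interval -0.42 to 0.21). BPA replicate 1 was the low array, and without it the difference was -0.011, the smallest of a range that reached -0.18 with each array left out in turn.

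Kcnd1, which encodes a fast-inactivating A-type channel, read 8.11, 7.81 and 8.31 in controls and 8.27, 8.26 and 8.46 after BPA. BPA replicates 1 and 2 lay below control replicate 3, so the groups overlapped, and the difference was 0.25 ± 0.16 (SE, adjusted p = 0.867). Control replicate 2 was the low array, and without it the difference was 0.12. Its relatives Kcnd2 and Kcnd3 were dim and differed by 0.093 ± 0.22 and 0.11 ± 0.15 (SE). Another probe set of Kcnd2 was lower in all 3 BPA arrays, at 5.44, 5.36 and 5.35 against 5.61, 5.68 and 5.45. It differed by -0.20 ± 0.096 (SE, adjusted p = 0.852), and all its values lay below the 95th percentile of the olfactory receptors.

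Kcnq1, the slow delayed rectifier of heart and epithelia, was 7.45, 7.71 and 7.43 in controls and 7.74, 7.41 and 7.49 after BPA. The difference was 0.018 ± 0.14 (SE, adjusted p = 0.987), well within the spread of either group. Kcna2, of the Shaker-related delayed rectifiers, read 7.93, 7.89 and 7.35 in controls and 7.60, 8.23 and 7.49 after BPA. Its difference of 0.047 ± 0.24 (SE, adjusted p = 0.980) was likewise smaller than the range within each group, and it was 0.0049 without both replicate 3 arrays.

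Kcna1, another Shaker-related gene, varied more than any other of the 11 brighter members, over a range of 1.82 across the 6 arrays. Controls read 7.563, 8.003 and 6.186, and BPA arrays 7.63, 7.98 and 7.28. Control replicate 3 was the low one, also on the next 2 probe sets of the gene (6.73 against 7.38 or more elsewhere, and 6.34 against 6.92 or more). These 2, 1417416_at and 1437230_at, differed by 0.248 ± 0.25 and 0.023 ± 0.30 (SE). By control mean alone, 1417416_at was slightly brighter than the probe set used (7.28 against 7.25). On the probe set used, the difference of 0.38 ± 0.45 (SE, adjusted p = 0.914) turned to -0.15 without control replicate 3. It was 0.021 without both replicate 3 arrays. Acinar markers and the nerve and glia markers (6 of 8 named, 7.25 in control replicate 3 against 7.60 to 8.09 in the other arrays) were lowest in the same array. So were the list means of stellate and fibroblast markers (8.86 against 9.30 to 10.06) and of immune markers (7.71 against 7.84 to 8.59). Several genes of these lists were not lowest in control replicate 3. They were Pdgfrb, Tagln and Col1a1 of the first list, and Ptprc, C1qa, C1qb, Cd3e and Cd79a of the immune list. Cd3e was highest there, at 7.06. Of the named nerve and glia genes only Th was not lowest there, at 9.81 against 9.42 in control replicate 1 and 9.78 in control replicate 2. The part of these markers in the Kcna1 signal was not tested.

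Kcna5, a Shaker-related channel gene of heart and smooth muscle, had the widest range of the group, 2.38. It read 4.90, 4.94 and 6.48 in controls and 5.34, 4.97 and 7.28 after BPA, so it was higher in the replicate 3 array of each group than in the other 4 arrays. Only BPA replicate 3 lay above the olfactory receptor mark of 6.68. The difference between groups was 0.43 ± 0.67 (SE, adjusted p = 0.931). It turned to -0.28 without BPA replicate 3, was 0.95 without control replicate 3 and 0.24 without both. Kcna5 and Kcna1 are next to each other in the GRCm38.p6 reference gene table, with Kcna6 on the far side of Kcna1. Kcna6 read 6.42, 6.54 and 6.08 in controls and 6.55, 6.50 and 6.36 after BPA, so of the 3 neighbours Kcna5 was the only one with higher signal in the replicate 3 arrays. Kcna3, a channel best known from lymphocytes, was dim at 4.92 ± 0.16 in controls and 4.96 ± 0.045 after BPA (SD, n = 3 per group).

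**Figure D3:**
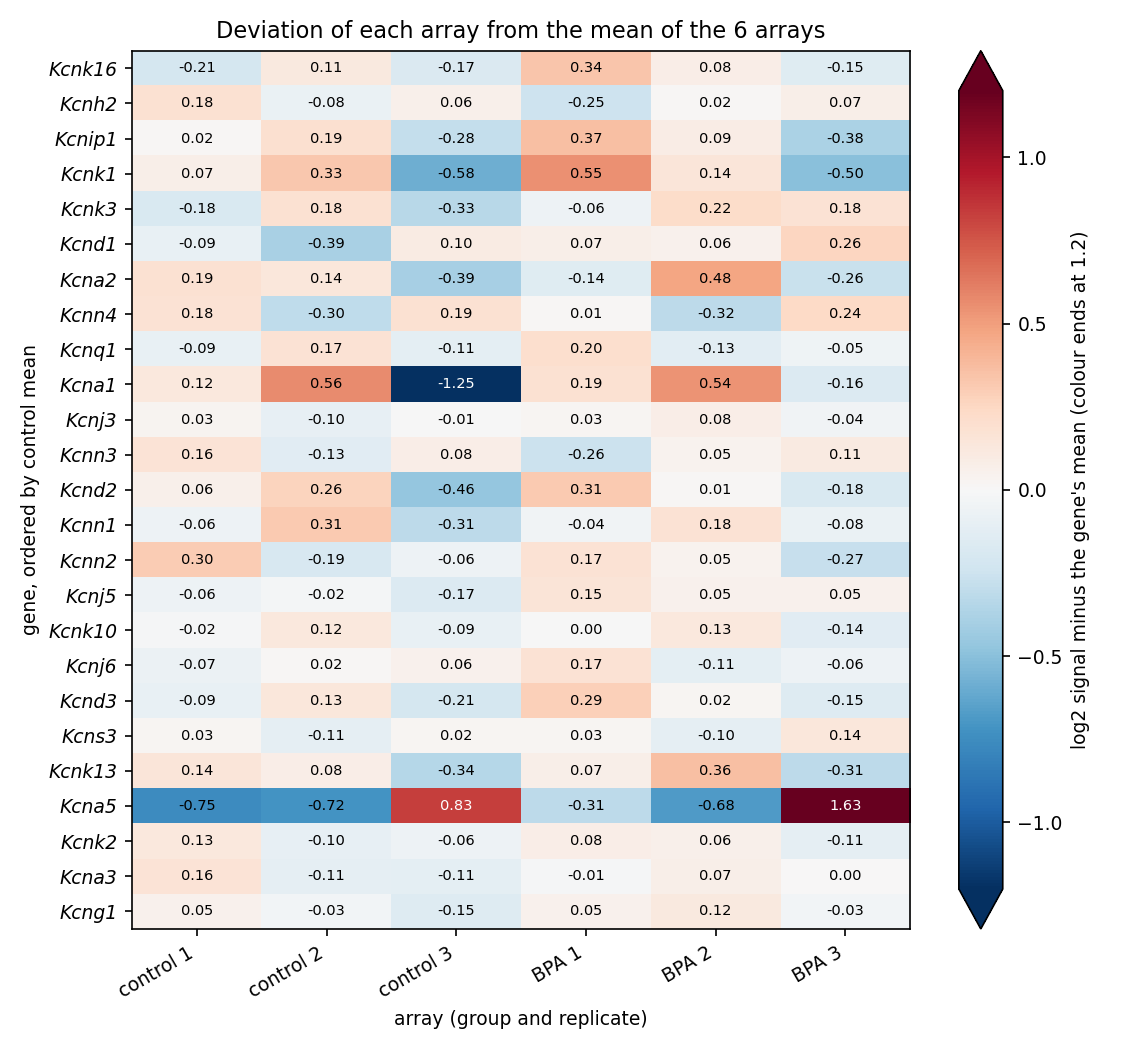
Log2 signal of each array minus the gene's mean over the 6 arrays (colour and printed value), for 25 genes (y axis, ordered by control mean) and 6 arrays (x axis). Control replicate 3 and BPA replicate 3 share their sign for Kcnk1, Kcnip1, Kcna2, Kcna1 and Kcna5, and the columns do not split by treatment.

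The replicate 3 arrays stood out for many members. For 12 of the 25 genes (48%) both replicate 3 arrays lay outside the range of the other 4, where 29.2% of all genes did so. In 9 of the 12 they were lower (18.8% of all genes were), with Kcna1, Kcnk1, Kcnip1 and Kcna2 by the most, at -1.06, -0.81, -0.50 and -0.49 in the mean of the replicate 3 arrays minus the mean of the others. In 3 they were higher (10.4% of all genes were), namely Kcna5 by 1.84, Kcnn4 by 0.32 and Kcnd1 by 0.27. These values are descriptions of 2 arrays against 4, without a test. Without both replicate 3 arrays the difference between treatments was 0.30 for Kcnd1, -0.091 for Kcnn4, 0.0015 for Kcnd2, -0.058 for Kcnn1, 0.0076 for Kcnk10, 0.13 for Kcnd3 and 0.10 for Kcnk13.

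The modifier and auxiliary subunits do not form potassium-selective channels by themselves. Kcnip1 was the only bright one, and its 4 probe sets disagreed. The brightest, 1448459_at, read 10.00, 10.18 and 9.70 in controls and 10.35, 10.07 and 9.61 after BPA, a difference of 0.050 ± 0.22 (SE, adjusted p = 0.977) that was 0.12 without both replicate 3 arrays. Probe set 1416785_at was higher after BPA for each replicate number, at 8.59, 8.32 and 7.83 against 7.82, 8.01 and 7.51. It differed by 0.47 ± 0.23 (SE, adjusted p = 0.852), and the groups still overlapped, since BPA replicate 3 lay below control replicate 2.

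The other 2 probe sets of Kcnip1 went the other way. Probe set 1433156_at read 8.22, 9.19 and 9.17 in controls and 7.92, 7.08 and 9.11 after BPA, a difference of -0.82 ± 0.51 (SE, adjusted p = 0.867). Leaving out each array in turn gave -1.36 to -0.34, and without both replicate 3 arrays it was -1.20 (adjusted p = 0.341). Probe set 1454504_at, dim at a control mean of 5.98, differed by -0.19 ± 0.12 (SE, adjusted p = 0.867). The annotation assigns it the same target sequence as 1433156_at, while 1448459_at and 1416785_at share a different one. Whether these sequences stand for separate transcripts was not tested. No direction for the gene as a whole follows from these 4. Kcns3 and Kcng1, electrically silent subunits that modify delayed rectifiers of the Kcnb type, were dim and differed by 0.041 ± 0.10 and 0.091 ± 0.089 (SE).

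**Figure D4:**
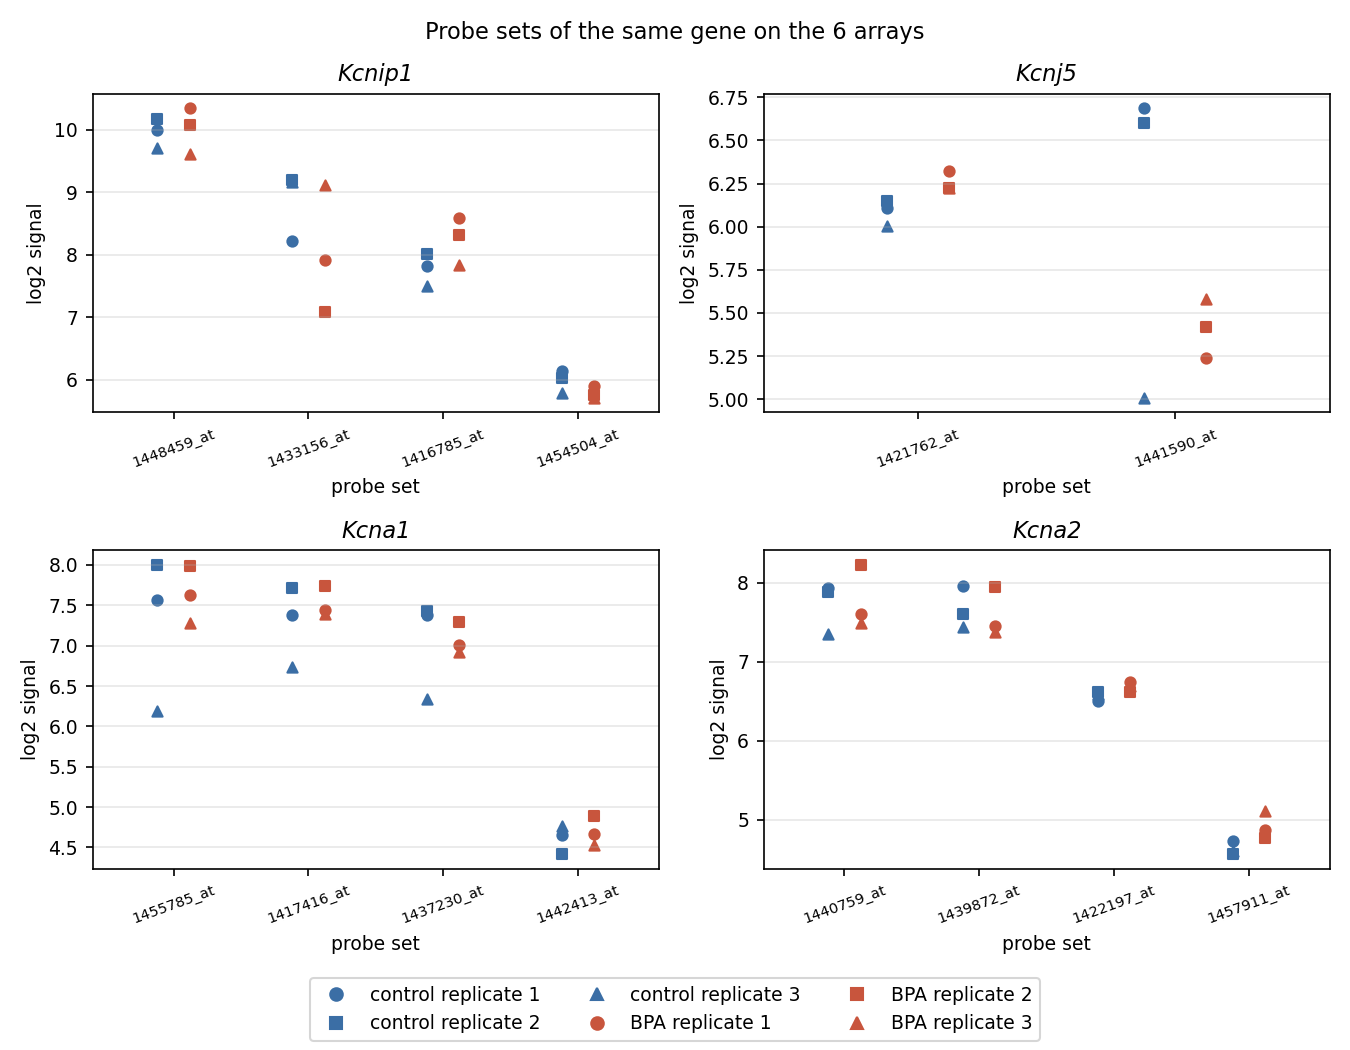
Log2 signal (y axis) of every probe set (x axis) of Kcnip1, Kcnj5, Kcna1 and Kcna2, with 1 point per array, coloured by group and shaped by replicate number. For Kcnip1 the second probe set is lower and the third higher on average after BPA, and for Kcnj5 control replicates 1 and 2 stand alone at 6.69 and 6.60 on probe set 1441590_at.

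Of the calcium-activated genes only Kcnn4 was among the brighter 11. It encodes the intermediate-conductance channel, known from immune and epithelial cells as well as from islets. It read 7.71, 7.24 and 7.72 in controls and 7.55, 7.22 and 7.78 after BPA, lowest in replicate 2 of each group, and differed by -0.043 ± 0.20 (SE, adjusted p = 0.979). Its dimmer probe set, 1421038_a_at, was higher in all 3 BPA arrays, at 5.11, 4.94 and 4.93 against 4.89, 4.60 and 4.80. That difference was 0.23 ± 0.10 (SE, adjusted p = 0.852), at a signal near the olfactory receptor median of 4.70.

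Immune markers (all 8 named) averaged 7.71 to 8.07 in controls and 8.02 to 8.59 after BPA, with the highest value in BPA replicate 1; their part in the Kcnn4 signals was not tested. The small-conductance channel genes Kcnn1, Kcnn2 and Kcnn3, whose channels contribute to the afterhyperpolarisation in neurons, were dim. They differed by 0.039 ± 0.17, -0.037 ± 0.17 and -0.070 ± 0.14 (SE). The 4 calcium-activated genes had a median of -0.040, and none of the 4 passed the test.

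The G protein-gated inward rectifiers assemble from Kcnj3, Kcnj5 and Kcnj6 in different pairs. Kcnj3 was the steadiest gene of the group, with a range of 0.18 over the 6 arrays: 7.09, 6.96 and 7.05 in controls and 7.08, 7.14 and 7.02 after BPA. It differed by 0.047 ± 0.10 (SE, adjusted p = 0.952), or 1.03 times the control signal with a 95% interval of 0.871 to 1.23 times. This interval was the narrowest among the 11 brighter genes, though some dimmer genes, such as Kcng1, had narrower ones. The control signal of Kcnj3, 7.03, still lay below the highest olfactory receptor value of 7.16.

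Kcnj5 was the 1 gene of the 25 whose groups did not overlap on the brightest probe set. It read 6.11, 6.15 and 6.01 in controls and 6.32, 6.22 and 6.22 after BPA, higher in all 3 BPA arrays by 0.17 ± 0.097 (SE, adjusted p = 0.866). All of these values lay under the olfactory receptor mark of 6.68. By control mean alone, the other probe set of Kcnj5 was slightly brighter (6.10 against 6.09). That probe set, 1441590_at, had the opposite sign: 6.69, 6.60 and 5.01 in controls against 5.24, 5.42 and 5.58 after BPA, a difference of -0.69 ± 0.43 (SE, adjusted p = 0.867). There control replicate 3 lay below every BPA array, and without both replicate 3 arrays the difference was -1.32 (adjusted p = 0.231). Leaving out each array in turn gave -1.23 to -0.39. Kcnj6 was at 5.91 ± 0.065 in controls and 5.91 ± 0.15 after BPA (SD, n = 3 per group).

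Over the other 34 probe sets of the group the differences ran from -0.82 to 0.47. Of these 20 had the opposite sign to the brightest probe set of their gene, and 2 were more than 0.5 away from it, those of Kcnip1 and Kcnj5 given above. Among the opposite signs not given above were Kcnd1 1421538_at (-0.0082), Kcnd3 1442555_at (-0.057), Kcnj3 1455374_at (-0.043) and Kcnj3 1444025_at (-0.077). So were Kcng1 1459656_at (-0.078), Kcns3 1457799_at (-0.12) and Kcnk13 1447645_x_at (-0.13). The brightest probe sets of these genes had a higher mean after BPA. Counting all 59, groups did not overlap for 5 (8.47%), beside 11.5% of all probe sets; 4 were higher and 1 was lower, beside 7.56% and 3.96%. In addition to those of Kcnj5, Kcnn4 and Kcnd2 these were 2 dimmer probe sets of Kcna2. Probe set 1457911_at of Kcna2, the 1 with an unadjusted p under 0.05, read 4.73, 4.56 and 4.60 in controls and 4.87, 4.77 and 5.11 after BPA. It differed by 0.28 ± 0.11 (SE, adjusted p = 0.837). Probe set 1422197_at of the same gene read 6.50, 6.62 and 6.59 in controls and 6.74, 6.62 and 6.70 after BPA. Its highest control and lowest BPA value nearly touched, and it differed by 0.12 ± 0.10 (SE, adjusted p = 0.888), while the bright second probe set of Kcna2 differed by -0.075 ± 0.21, so the probe sets of this gene did not share a direction.

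Of 57 further potassium channel genes, 50 were named on the array and 0 passed the test. Without adjustment, 1 in each direction had p under 0.05, where 3.8% of all genes were higher and 1.14% lower at that threshold. Of the 50, 40 had a higher mean after BPA (80%, beside 60.3% of all genes), with a median of 0.067. Without control replicate 3 there were 30 (60%, beside 55.7% of all genes), without both replicate 3 arrays 32 (64%, beside 60.2%), and with cyclic loess scaling 33 (66%, beside 53.2%). Of the 50, 8 did not overlap between groups (16%, beside 11.7%). The brightest were Dpp10 and Dpp6, which encode partners of A-type channels, at 9.83 ± 0.18 and 8.82 ± 0.074 in controls (SD, n = 3), and Kcne4, a small accessory subunit, at 8.35 ± 0.084. They differed by -0.067 ± 0.25, 0.055 ± 0.16 and 0.054 ± 0.17 (SE).

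Kcnab2, a cytoplasmic beta subunit of Shaker-related channels, was higher in all 3 BPA arrays, at 6.73, 6.60 and 6.58 against 6.39, 6.16 and 6.39. The difference was 0.32 ± 0.11 (SE, adjusted p = 0.837). Kcnj12, a strong inward rectifier, was lower in all 3, at 6.46, 6.01 and 6.22 against 6.62, 6.51 and 6.62, by -0.36 ± 0.14 (SE, adjusted p = 0.837). Neither passed the test, and both signals lay under the 95th percentile of the olfactory receptors except for BPA replicate 1 of Kcnab2. The BK and ATP-sensitive channel genes, of which 8 of 9 were named, had a median of 0.012 with 4 higher and 4 lower, and 0 of the 8 passed the test.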

How the data were processed

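The authors deposited 1 log2 signal per probe set and array. The submitters' processing notes name MAS5, with no version. The lowest value of each array lay between 2.95 and 3.04, and which later scaling the authors applied is not settled, which matters most for dim probe sets. Detection calls were not used here. Values were used as deposited.

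The platform annotation gave 1 gene for 34945 probe sets, several for 932 and none for 9160, after 64 array controls were left out. All 59 channel probe sets matched the same symbol by gene ID in the GRCm38.p6 RefSeq table. Titles gave each sample's group and number.

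The fit used limma 3.58.1 (R 4.3.3) with a variance trend on all 45037 probe sets, without a filter because dim members were to be followed. Tests were two-sided, with Benjamini-Hochberg adjustment over the whole table and a threshold of 0.05. Single array values were compared by exact permutation tests. In 10 simulated sets of 45037 probe sets with independent noise, the test recovered 56.7% of 100 probe sets changed by 1 (log2) and 88.4% of 100 changed by 2. These shares do not give the power for the channels. The largest channel difference was 0.82 in size, smaller than either change, and the real arrays shared variation.

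All members are named by their brightest probe set; values of all arrays are given for members above the median of all probe sets (6.60) and for probe sets with an unadjusted p under 0.05 or no overlap. Kcna5, Kcna6 and some of the probe sets that disagreed were added for their pattern after values were seen. Members and lists were chosen with earlier results of these data known. Alternatives were filters, scalings, variance models, a replicate block, arrays left out, a threshold of 0.1 and gene values averaged over probe sets. Figures were drawn with matplotlib 3.10.9.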

Additional observations from a re-analysis of the deposited data

How the results depend on the processing

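Under every alternative run (2 filters, 3 scalings, 2 other variance models, the replicate block, a threshold of 0.1, each array and both replicate 3 arrays left out) 0 probe sets, 0 channel probe sets and 0 of the further channel genes passed. The median over the channels was 0.12 with the filter at the 75th percentile, which kept 5 channel probe sets, and -0.0039 to 0.12 with each array left out. No scaling moved the median of all probe sets by 0.1. Whether the numbers pair the samples is not settled. Deviations of same-numbered arrays correlated at 0.40, 0.066 and 0.64. Replicates 1 and 3 correlated best with the same number in the other group, while replicate 2 of each group correlated better with replicate 1 of the other (0.35 and 0.37). Each group's mean was subtracted first, which constrains these correlations. With the replicate block the smallest adjusted p of a channel probe set was 0.356, and 4 in place of 1 had an unadjusted p under 0.05.

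Signs of small differences turned in several fits, and the cause was not tested. Kcnj6 turned to 0.0043 under quantile scaling, 0.020 under median centring and 0.055 without both replicate 3 arrays, and Kcnk10 to 0.0093 under median centring and 0.0076 without those arrays. Cyclic loess gave -0.025 for Kcnq1, -0.00055 for Kcnk2 and -0.018 for Kcna1 1437230_at. Without both replicate 3 arrays Kcnq1 was -0.0062, Kcnn1 -0.058, Kcnn2 0.053 and Kcna1 1437230_at -0.25. The mean of all probe sets of a gene gave -0.12 for Kcnip1, 0.095 for Kcnn4, -0.073 for Kcnd2, -0.26 for Kcnj5, -0.040 for Kcns3 and -0.026 for Kcnk13.

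With each array left out in turn, the differences that changed sign ran as follows: Kcna1 1417416_at -0.024 to 0.47, Kcna1 1437230_at -0.33 to 0.21, Kcna1 1455785_at -0.15 to 0.75, Kcna2 1439872_at -0.25 to 0.071, Kcna2 1440759_at -0.18 to 0.19, Kcna3 -0.0039 to 0.13 and Kcna5 -0.28 to 0.95. Others ran as follows: Kcnd2 -0.11 to 0.25, Kcnd3 -0.011 to 0.21, Kcnip1 -0.12 to 0.25, Kcnj6 -0.088 to 0.054, Kcnk1 -0.14 to 0.41, Kcnk10 -0.078 to 0.054 and Kcnk13 -0.082 to 0.25. The last of them were Kcnk2 -0.021 to 0.094, Kcnn1 -0.11 to 0.20, Kcnn2 -0.14 to 0.10, Kcnn3 -0.15 to 0.041, Kcnn4 -0.20 to 0.10, Kcnq1 -0.080 to 0.11 and Kcns3 -0.018 to 0.10. No other difference of a brightest probe set changed sign in this way.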
